A study of Mus musculus with 18 samples.

Results

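Retinas of Balb/cJ mice detached by a subretinal injection of INS37217 were compared with retinas detached by saline alone, 7 d after the injection. The comparison holds 6 arrays of a series of 18, chosen by their titles: 3 of INS37217 at 7 d and 3 of saline at 7 d. Both groups received 1 uL under the retina, with 10 uM INS37217 in saline in the first and saline only in the second, so a needle wound and a detachment are common to both. Each array was hybridised with RNA from a separate pool of more than 5 retinas, and the 3 arrays of a group are biological replicates per the design text. By that text, retinal folds had resolved at 7 d while function was still incomplete. The other 12 arrays hold the same treatments at 2 h and 24 h. No untreated retina was analysed here, and the sources used here do not give the age or sex of the mice.

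INS37217, also called denufosol, activates the nucleotide receptor P2Y2, which in the pigment epithelium drives ion and water transport out of the subretinal space. When a retina is separated from the pigment epithelium, photoreceptors lose their support, Mueller glia take on a reactive state, and phagocytes enter the subretinal space. In later wound healing, macrophages and contractile matrix-producing cells lay down fibrillar collagen, fibronectin and crosslinking enzymes, and transforming growth factor beta is a known driver of that programme in many tissues. The comparison asked which genes differed between the treatments after the folds had gone.

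Expression is given as the deposited log2 value of a probe set, and a difference is the INS37217 mean minus the saline mean on that log2 scale (n = 3 arrays in each group), with its standard error (SE). A probe set was called when limma's p adjusted over 22626 probe sets was under 0.05. Words such as rose and fell describe INS37217 against saline at the same time, not a change over time. The replicate number stood in the model as a block, which was fixed with the comparison. Earlier results of these data, known by then, had shown same-numbered arrays deviating together. At 7 d the deviations of same-numbered arrays from their group means correlated at 0.668 to 0.921. Replicates 2 and 3 of different groups also deviated together, at 0.363 to 0.725, so much of what the numbers mark is replicate 1 against the other two. Within the 7 d groups, replicate 1 correlated with replicates 2 and 3 at 0.9591 to 0.9683, against 0.9941 to 0.996 between replicates 2 and 3. For 8 of the 9 INS37217 arrays, all 3 at 7 d among them, the source name speaks of saline only. The source name of saline 7 d replicate 2 gives 2 h. That array correlated at 0.9945 with INS37217 7 d replicate 2 and at up to 0.979 with the saline 2 h arrays, and it was kept at 7 d as titled. The tissue label was checked with rod genes, whose summed linear level had a log2 of 16.68 to 16.74 with INS37217 and 16.72 to 16.78 with saline.

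At 7 d the genes called higher in INS37217 than in saline retinas included fibrillar collagens and other scar matrix genes (15 of 27 measured), and smaller shares of contractile (6 of 19), monocyte and macrophage (8 of 37) and reactive glia genes (6 of 29). Without the block the counts for these lists were 4, 0, 1 and 2. Of 22626 probe sets 145 passed (0.641%), of which 144 were higher (0.636%) and 1 was lower (0.00442%). The 144 hold 106 named genes, and 18 of these genes had a difference over 1. Without the block 34 probe sets passed, or 0.15% of those tested, all 34 of them higher and all among the 144. The named genes among the 34 were Arg1, Bgn, Ccl6, Cd74, Col1a1, Col1a2, Col3a1, Col5a1, Ecm1, F13a1, Fcgr2b, Fn1, Gpnmb, H2-Aa, H2-D1, Lyz2, Mgp, Mmp12, Pf4, Postn, Serpina3n, Serpinf1, Serpinh1, Tgfbi and Timp1. The rest of the 106 genes did not pass in that fit. The median difference over all probe sets was -0.02 and 42.6% of probe sets were above 0, so the calls lie in a small upper tail. In 111 of the 144 the 3 INS37217 values all lay above the 3 saline values, which held for 535 of all probe sets (2.36%), and 355 of all probe sets (1.57%) lay wholly below. By brightest probe sets the groups were apart with INS37217 higher for 2.39% of named genes and lower for 1.82%. The same-numbered difference was above 0 in 3 of 3 pairs for all 144, against 12.3% of all probe sets. When each of the 6 arrays was left out in turn, between 73 and 166 probe sets passed, and 63 of the 144, with 48 named genes, passed each time. Single omissions moved the count by more than 1.5 times for INS37217 replicate 2 (73), saline replicate 1 (94) and saline replicate 3 (87). Without saline replicate 2, the array with the conflicting source name, 116 passed.

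**Figure D1:**
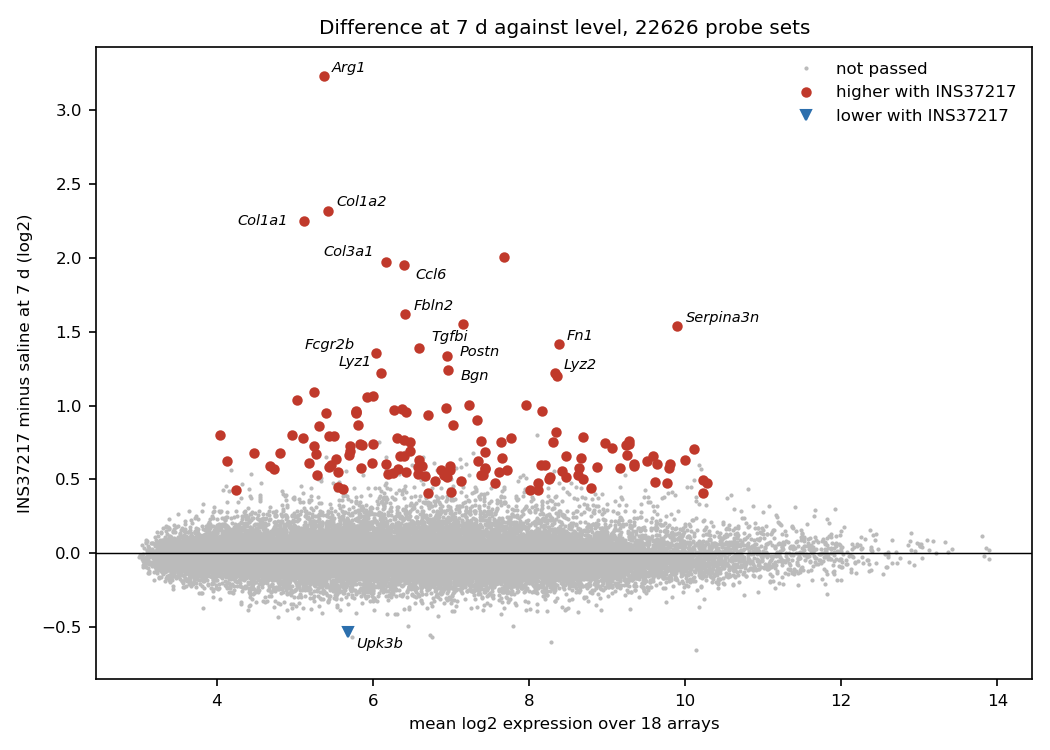
The log2 difference between INS37217 and saline at 7 d (y axis) is plotted against the mean log2 expression over the 18 arrays (x axis) for 22626 probe sets, with the 144 higher and the 1 lower probe set coloured. The called points lie above 0 at all levels from low to high, Arg1 stands highest at 3.23, and Upk3b is the only called point below 0.

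Fibrillar collagens, the tensile fibres of connective tissue and scar, held 3 of the 4 largest gene differences. Col1a1, the alpha 1 chain of type I collagen, read 6.77, 7.11 and 7.25 on the INS37217 arrays, against 4.77, 4.68 and 4.93 on the saline arrays. The values within each group lie close together and the gap between the groups is several times their spread. The difference was 2.25 (SE 0.11, adjusted p = 1.4e-10), a 4.76-fold higher level. The saline mean of this probe set stood at the 17.3 percentile of that group, so the fold rests on a dim baseline. A second, brighter Col1a1 probe set rose by 0.73 (SE 0.15, adjusted p = 0.016), or 1.66-fold, with INS37217 replicate 1 high at 6.60 beside 5.41 and 5.68, against 5.46, 5.01 and 5.04 with saline. Those ranges overlap, and this probe set did not pass without the block (adjusted p = 1).

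Col1a2, the partner chain of type I collagen, read 6.91, 7.70 and 7.77 with INS37217, against 5.40, 4.89 and 5.13 with saline, on 1 of its 2 probe sets. It rose by 2.32 on that probe set (SE 0.20, adjusted p = 7.8e-07) and by 1.55 on the other (SE 0.15, adjusted p = 3.4e-06). Col3a1, type III collagen, which is laid down early in wound repair, read 7.30, 7.90 and 7.59 with INS37217, against 5.58, 5.58 and 5.72 with saline. Its difference was 1.97 (SE 0.16, adjusted p = 4e-07), a 3.92-fold higher level, while its second probe set stood at 0.34 and did not pass. In Col1a2 and Col3a1 alike, the lowest INS37217 array lay above the highest saline array by more than 1 log2 unit.

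The 250 bases before the RefSeq start of these 2 collagen genes are shown because both rose together (build GRCm38.p6, in the direction of the gene). Capitals mark a TATAAA match in Col3a1 and a CCAAT match in Col1a2. Col3a1 lies on the + strand at chr1:45311288-45311537 and its match begins 117 bases before the start. Col1a2 lies on the + strand at chr6:4505368-4505617 and its match begins 109 bases before the start.
Col3a1: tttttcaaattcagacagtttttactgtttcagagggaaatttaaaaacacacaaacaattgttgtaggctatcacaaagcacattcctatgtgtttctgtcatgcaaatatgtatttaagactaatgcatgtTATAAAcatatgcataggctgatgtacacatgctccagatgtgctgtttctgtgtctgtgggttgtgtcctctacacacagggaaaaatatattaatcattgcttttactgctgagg
Col1a2: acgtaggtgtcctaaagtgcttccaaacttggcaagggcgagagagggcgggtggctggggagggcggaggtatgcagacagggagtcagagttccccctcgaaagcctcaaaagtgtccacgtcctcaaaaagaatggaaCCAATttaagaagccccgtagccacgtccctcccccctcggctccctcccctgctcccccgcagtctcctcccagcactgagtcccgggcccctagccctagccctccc

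Type V collagen, which nucleates type I fibrils, also rose. Col5a1 rose by 0.98 (SE 0.12, adjusted p = 5.8e-05) on 1 probe set and by 0.42 (SE 0.09, adjusted p = 0.041) on a second, with the third at 0.13. The second did not pass without the block and passed in 0 of 6 single omissions. Col5a2 rose by 0.74 (SE 0.12, adjusted p = 0.0025), with its other probe set at 0.05.

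Glycoproteins that bind collagen and cells rose with the fibrils. Fn1, fibronectin, read 9.38, 9.35 and 9.13 with INS37217, against 7.97, 7.84 and 7.80 with saline, and rose by 1.42 (SE 0.10, adjusted p = 2e-08). The groups do not overlap on that probe set, and a second Fn1 probe set stood at 0.03. Postn, periostin, a matricellular protein of activated fibroblasts, read 7.64, 8.34 and 8.09 with INS37217, against 6.63, 6.76 and 6.68 with saline, and rose by 1.33 (SE 0.11, adjusted p = 2.7e-07). Fbln2, the elastic fibre protein fibulin 2, read 8.10, 8.01 and 7.95 with INS37217, against 6.76, 6.36 and 6.08 with saline. It rose by 1.62 (SE 0.16, adjusted p = 3.5e-06), and without the block its adjusted p was 0.056. The INS37217 arrays were tight and the saline arrays spread more widely, with replicate 1 highest. Tgfbi, a matrix protein induced by transforming growth factor beta, rose on 3 of its 4 probe sets, by 0.95 to 1.39.

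Across the list of fibrillar collagens and scar matrix, 15 of 27 measured genes rose by their brightest probe set, 17 rose by any probe set and 0 fell. The median difference of the list was 0.44, with 25 of 27 genes above 0, against a median of -0.02 and 89 higher of 12393 genes (0.718%) over all named genes. Without the block 4 of the 27 passed. The other members that rose included the matrix glycoproteins Tnc (0.59), Thbs1 (0.53 and 0.63 on its 2 probe sets), Sparc (0.48) and Fbln1 (0.44). The second Fbln1 probe set stood at 0.10. Ccn2 (0.75), a matricellular growth factor, also rose. Processing enzymes rose as well: Lox and Loxl1, which crosslink collagen, by 0.74 and 0.57, and Serpinh1, the collagen chaperone HSP47, by 0.75 on 1 of its 2 probe sets. Lox passed in 1 of 6 single omissions on that probe set and in 6 of 6 on a second (0.53). The 2 members below 0 were Thbs2 at -0.18 and Eln, elastin, at -0.04. These 2 genes, and the markers Pdgfra, Twist1, Fap, Pdgfrb, Cspg4, Itga2b and Ppbp given further on, were chosen after their values were seen.

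**Figure D2:**
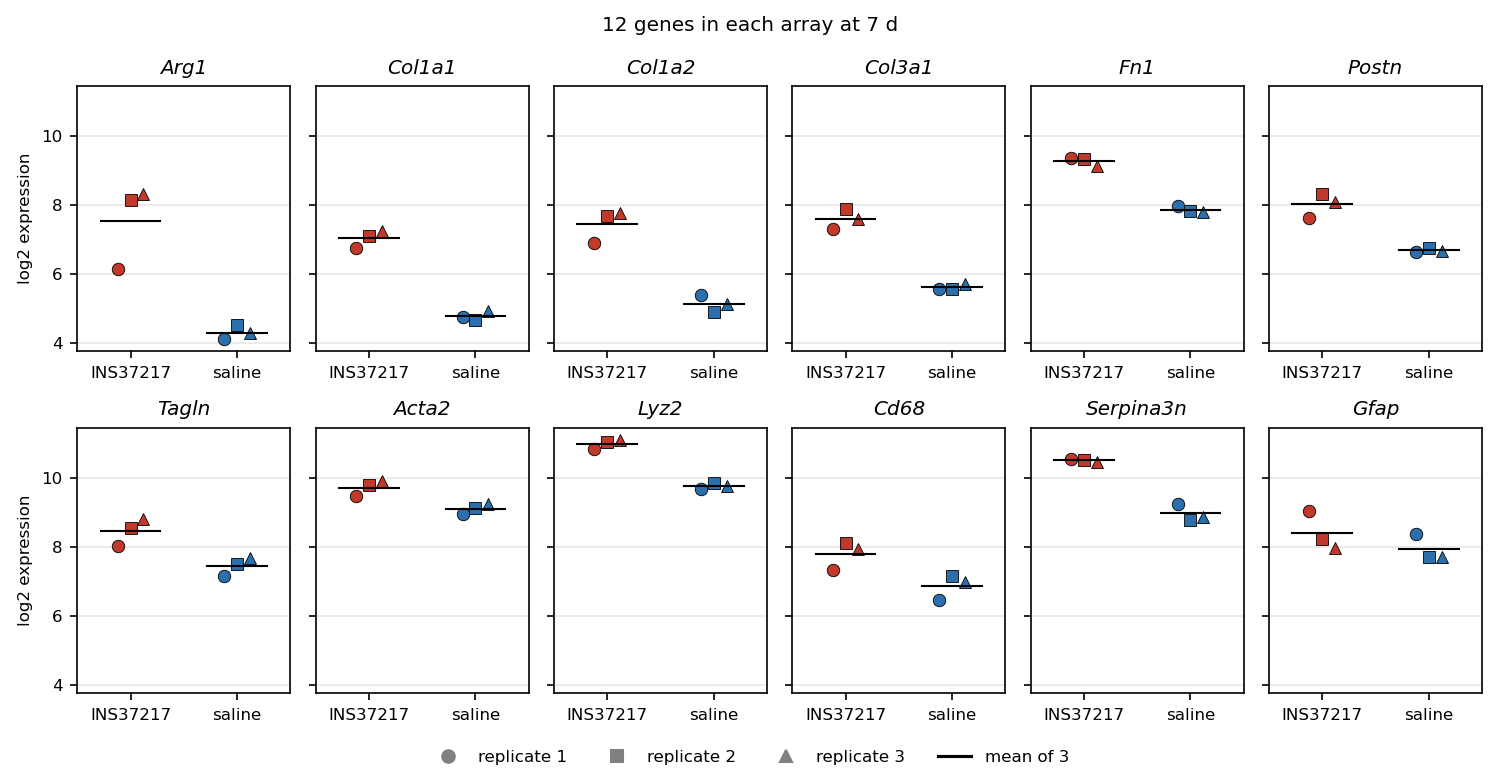
The log2 expression (y axis) of 12 genes is shown for each array at 7 d, with INS37217 to the left of saline, the symbol giving the replicate number and the bar the mean of 3 arrays. For Arg1, Col1a1, Col1a2, Col3a1, Fn1 and Postn the groups are apart by more than 0.8, while for Gfap replicate 1 is high in both groups and the ranges overlap.

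Stromal proteoglycans changed in part. Bgn, biglycan, a small leucine-rich proteoglycan of collagen matrix, read 8.38, 7.89 and 8.13 with INS37217, against 7.12, 6.80 and 6.75 with saline, and rose by 1.24 (SE 0.12, adjusted p = 3.5e-06). All 3 of its probe sets passed, at 0.61 to 1.24. Without the block the brightest did not pass (adjusted p = 0.12) and another did (adjusted p = 0.028). Mgp, matrix Gla protein, an inhibitor of calcification, rose by 0.76 and Col6a3, a chain of microfibrillar type VI collagen, by 0.60. Of 15 measured genes 3 rose and 0 fell, with a list median of 0.18. Lum stood at 0.51 (adjusted p = 0.17) and Dcn at 0.37 (adjusted p = 0.76). The basement membrane list had 0 of 18 genes called, where 0.718% of all named genes were called higher. Its median was 0.10, and 15 of the 18 were above 0 (83.3%, against 40.8% of all named genes). In 4 of the 18 the groups were apart with INS37217 higher, against 2.39% of all named genes. Nid1 (0.44, adjusted p = 0.1) and Col4a1 (0.41, adjusted p = 0.1) stood at its top.

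Several contractile genes, which mark smooth muscle and myofibroblasts, were higher. Tagln, transgelin, an actin-binding protein, read 8.04, 8.56 and 8.81 with INS37217, against 7.17, 7.52 and 7.70 with saline. Replicate 1 is the lowest array in both groups, and each INS37217 array lies 0.87 to 1.11 above the saline array of its number. Tagln rose by 1.01 (SE 0.11, adjusted p = 8.4e-06), and without the block its adjusted p was 0.12. Acta2, smooth muscle actin, read 9.48, 9.80 and 9.91 with INS37217, against 8.97, 9.14 and 9.26 with saline. It rose by 0.61 (SE 0.09, adjusted p = 0.0009) on 1 probe set, with an adjusted p of 0.056 without the block, and the other Acta2 probe set stood at -0.26. Cnn1, calponin, rose by 0.55, and Myh9, a non-muscle myosin heavy chain, by 0.50 and 0.53 on 2 of its 4 probe sets. Of 19 contractile genes 6 rose, 0 fell and 0 passed without the block, and the list median was 0.40. Cnn1 and Actg2 (0.43) passed in 0 of 6 single omissions.

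Most transforming growth factor beta genes were above 0, but few were called. Tgfb1, the ligand, read 7.09, 6.51 and 6.39 with INS37217, against 6.57, 5.86 and 5.74 with saline, and rose by 0.61 (SE 0.12, adjusted p = 0.0095). The ranges overlap because replicate 1 is high in both groups, and without the block the adjusted p was 1. Ltbp3, which binds the latent ligand, rose by 0.48 and Bmp1, the protease that trims procollagen, by 0.64, each on 1 probe set that is not the brightest of the gene. Bmp1 did not pass without the block and passed in 1 of 6 single omissions, and another of its probe sets stood at -0.04. Tgfbr2, a receptor, stood at 0.57 (adjusted p = 0.081) and Igfbp7 at 0.44 (adjusted p = 0.068). By brightest probe sets 1 of 31 genes rose, against 0.718% of all named genes, 0 fell, and the median was 0.15. By any probe set 3 rose. Of the 31 genes 27 were above 0 (87.1%, against 40.8% of all named genes). The groups were apart with INS37217 higher in 4 and lower in 1, against 2.39% and 1.82% of all named genes.

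Fibroblast and mural cell markers were set beside these results, since whole retinas were measured. In whole tissue, more cells of a type and more RNA per cell cannot be told apart. Of 20 fibroblast markers 5 rose, namely Col1a1, Col1a2, Col3a1, Col6a3 and Fbln1, and 16 were above 0. The log2 of the summed level of all 20, with these 5 matrix genes included, ran from 11.99 to 12.07 with INS37217, against 11.65 to 11.67 with saline. Pdgfra at 0.09, Twist1 at 0.01 and Fap at -0.05, markers that are not matrix proteins, did not pass. They were picked after their values were seen, from a list with 16 of 20 above 0, and do not stand for it. Of 14 pericyte and smooth muscle markers 3 rose, Tagln, Acta2 and Cnn1, 10 were above 0 and the median was 0.14. The log2 of the summed level of all 14, with these 3 contractile genes included, ran from 11.04 to 11.37 with INS37217, against 10.79 to 11.02 with saline. In 4 of the 14 the groups were apart with INS37217 higher. Pdgfrb stood at 0.01, Cspg4 at -0.01 and Rgs5 at -0.39. Pdgfrb and Cspg4 were also picked after their values were seen. Endothelial markers had 0 of 24 called, near the share of 0.718% called higher over all named genes. Their median was 0, with Cldn5, a tight junction protein, at -0.43 (adjusted p = 0.16). The part of these cells in the matrix result was not tested.

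Macrophage genes included the largest difference of all. Arg1, arginase 1, which turns arginine into ornithine and is abundant in wound-healing macrophages, read 6.15, 8.15 and 8.32 with INS37217, against 4.11, 4.53 and 4.28 with saline. INS37217 replicate 1 lies about 2 log2 units below the other 2, and even so it lies above every saline array. The difference was 3.23 (SE 0.30, adjusted p = 1.5e-06). The saline mean stood at the 10.9 percentile of all probe sets in that group, so the 9.40-fold estimate rests on a dim baseline. Ccl6, a chemokine of macrophages whose sequence is close to that of Ccl9, read 6.83, 7.78 and 7.72 with INS37217, against 5.30, 5.58 and 5.59 with saline. It rose by 1.95 (SE 0.19, adjusted p = 3.4e-06) on this probe set and by 0.80 on the other. F13a1, the A chain of coagulation factor XIII, read 6.12, 5.94 and 6.32 with INS37217, against 5.17, 5.00 and 4.93 with saline. The groups lie apart, and its difference was 1.09 (SE 0.11, adjusted p = 4.9e-06). Pf4, platelet factor 4, which macrophages also make, was 1.06 higher (SE 0.13, adjusted p = 8.4e-05). Gpnmb, a glycoprotein of lipid-loaded macrophages and melanosomes, rose by 0.66 and Cd36, a scavenger receptor, by 0.80 on 1 of its 3 probe sets. Of 28 genes in the wound-healing macrophage list 5 rose, 0 fell and 5 passed without the block, with a median of 0.11. Mrc1, the mannose receptor, stood at 0.49 (adjusted p = 0.063), Ccl9 at 0.43 (adjusted p = 0.24) and Chil3 at -0.14.

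Several general monocyte and macrophage markers were higher too. Lyz2, lysozyme M, read 10.85, 11.04 and 11.11 with INS37217, against 9.70, 9.85 and 9.79 with saline, and rose by 1.22 (SE 0.13, adjusted p = 1.1e-05). The groups do not overlap, and the spread within each is small. Lyz1, whose sequence is nearly the same, rose by 1.20 and 1.22 on 2 of its 3 probe sets, and the signals of the 2 genes may not be separated by these probes. Ptprc, the common leukocyte antigen CD45, read 5.72, 6.65 and 6.43 with INS37217, against 5.11, 5.54 and 5.30 with saline, and rose by 0.95 (SE 0.16, adjusted p = 0.0037, and 0.27 without the block). Cd68, a lysosomal membrane protein of phagocytes, read 7.35, 8.13 and 7.95 with INS37217, against 6.47, 7.18 and 6.98 with saline. It rose by 0.93 (SE 0.20, adjusted p = 0.022, and 0.39 without the block), and it passed in 3 of 6 single omissions. For both genes replicate 1 is the lowest array of its group, and the groups do not overlap.

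Receptors and enzymes of phagocytes behaved likewise. Fcgr2b, an inhibitory receptor for antibodies that shares sequence with other Fc receptors, rose by 1.36 and 0.73 on 2 of its 4 probe sets. Fcer1g, through which Fc receptors signal, rose by 0.57, Ms4a7 of macrophages by 0.73 and Cybb, the catalytic chain of the phagocyte oxidase, by 0.68. Of 37 monocyte and macrophage markers 8 rose, 35 were above 0 and 0 fell, with a median of 0.32, and 1 passed without the block. Their summed level had a log2 of 13.01 to 13.31 with INS37217, against 12.51 to 12.72 with saline. Adgre1, the F4/80 antigen, stood at 0.11 (SE 0.10, adjusted p = 0.99). Clec7a (0.61) and Fcgr3 (0.75) lay just outside the threshold, both with an adjusted p of 0.055.

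The 250 bases before the RefSeq start of Cd68 are given for comparison with the collagen genes (GRCm38.p6, - strand, chr11:69666171-69666420, in the direction of the gene). Capitals mark TGANTCA matches of AP-1 beginning 149 and 24 bases before the start and CCAAT matches beginning 230, 84 and 60 bases before it, none of which overlap.
Cd68: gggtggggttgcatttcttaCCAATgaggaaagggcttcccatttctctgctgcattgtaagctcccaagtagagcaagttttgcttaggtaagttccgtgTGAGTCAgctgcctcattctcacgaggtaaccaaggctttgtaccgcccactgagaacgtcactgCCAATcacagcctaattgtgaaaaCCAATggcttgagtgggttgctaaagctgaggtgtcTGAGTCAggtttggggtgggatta

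Lists of other blood cells and of microglia held 0 to 2 called markers each. Of 13 microglia identity genes 1 rose, Sparc, which matrix-producing cells also express. The list median was 0.07, and 10 of the 13 were above 0 (76.9%, against 40.8% of all named genes). In 3 of them the groups were apart with INS37217 higher, against 2.39% of all named genes. Tmem119 stood at -0.03 (SE 0.17), P2ry12 at -0.44 (SE 0.16) and Cx3cr1 at 0.34 (SE 0.11). C1qc stood at 0.32 (SE 0.11) and C1qa at 0.24 (SE 0.13), and none of these genes passed. Of 14 neutrophil genes 1 rose, Lcn2, with a list median of -0.02, and S100a9 stood at 0.19 (SE 0.22) and S100a8 at 0.09 (SE 0.22). Of 20 lymphocyte genes 0 were called (median -0.04), and of 9 erythrocyte genes 0 were called (median -0.05). Over all named genes 0.718% were called higher, so 0 calls in such short lists lie near that share. Of 21 platelet and coagulation genes 2 rose, Pf4 and F13a1, both also in the macrophage list. Itga2b, the platelet integrin chain, stood at 0.04 and Ppbp, a platelet chemokine, at -0.07, both picked after their values were seen.

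Antigen presentation genes rose in part. Cd74, the invariant chain of MHC class II, read 8.06, 7.82 and 7.63 with INS37217, against 7.20, 6.88 and 6.82 with saline, and rose by 0.87 (SE 0.11, adjusted p = 5.8e-05). H2-Aa, a class II chain, rose by 0.96 and 0.78 on its 2 probe sets. The groups do not overlap on any of these 3 probe sets. Of 8 class II genes 2 rose and the median was 0.15, with H2-Eb1 at 0.46 (adjusted p = 0.062) and the class II transactivator Ciita at -0.15. B2m, the light chain of class I, rose by 0.63 (SE 0.11, adjusted p = 0.0047, and 0.84 without the block), and of 11 class I and processing genes 2 rose. H2-K1 rose on 3 of its 4 probe sets and H2-D1 on 3 of its 9, and these genes are polymorphic and close in sequence, so their probe sets may not separate them in Balb/cJ mice. Psmb9, an immunoproteasome subunit, stood at 0.12 (adjusted p = 0.99).

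Some lysosomal and matrix-degrading enzymes were higher. Ctss, cathepsin S, which trims the invariant chain, read 9.67, 10.58 and 10.72 with INS37217, against 9.02, 10.05 and 9.53 with saline, and rose by 0.79 (SE 0.15, adjusted p = 0.0073). Replicate 1 is low in both groups, so the ranges overlap, and without the block the adjusted p was 1. Timp1, an inhibitor of metalloproteinases, read 8.12, 8.68 and 8.61 with INS37217, against 7.49, 7.55 and 7.48 with saline, and rose by 0.96 (SE 0.12, adjusted p = 8.6e-05). Among the metalloproteinases, Mmp12, macrophage elastase, rose by 0.62 from a dim baseline, Mmp14 by 0.52 and Mmp2 by 0.49. Of 29 proteases and inhibitors 6 rose, with a median of 0.19, and of 27 lysosomal genes 5 rose, with a median of 0.21. Ctsc, cathepsin C, was the sixth of the proteases to pass. Galectins and annexins, which bind glycans and membranes at sites of injury, were higher in part. Lgals3 rose by 0.74, S100a6 by 0.58, Lgals1 by 0.49 and Anxa1 by 0.41. Anxa2 rose by 0.66 on 1 of its 3 probe sets, with the lowest at -0.03. These genes are 5 of 23 of that list (median 0.23), and 0 of the 23 passed without the block.

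Several reactive glia genes were higher. Serpina3n, a serine protease inhibitor of reactive astrocytes and Mueller glia, read 10.55, 10.53 and 10.48 with INS37217, against 9.26, 8.79 and 8.89 with saline. The INS37217 arrays agree within 0.07, and all lie more than 1 log2 unit above the saline arrays. It rose by 1.54 (SE 0.11, adjusted p = 2.5e-08), a 2.91-fold higher level. Chil1, a chitinase-like glycoprotein of reactive glia and macrophages, rose by 0.82, Lcn2, lipocalin 2, by 0.59 and A2m, a broad protease inhibitor, by 0.51. Gfap, the intermediate filament of stressed Mueller glia, read 9.04, 8.24 and 7.97 with INS37217, against 8.38, 7.73 and 7.72 with saline. It rose by 0.47 (SE 0.11, adjusted p = 0.039) on 1 of its 2 probe sets, with the other at 0.36. On the called probe set the ranges overlap, without the block the adjusted p was 1, and it passed in 1 of 6 single omissions. Of 29 reactive glia genes 6 rose and 0 fell (median 0.21), and 2 passed without the block, Serpina3n and Timp1. Chil1 (adjusted p = 0.25) and A2m (adjusted p = 1) did not pass without it. Of 19 Mueller glia identity genes 0 were called, where the share over all named genes was 0.718%, and the difference between these lists was not tested. Their median was -0.02, with Vim at 0.25, Aqp4 at -0.15 and Kcnj10 at -0.15.

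Retinal neuron genes had 0 calls in either direction, where 89 of 12393 named genes (0.718%) were called higher and 0 lower. Lists of this size hold few calls at that share, so the 0 calls say little about neurons. The medians of these lists lay at or slightly below that of all genes. The median was -0.02 for 27 rod genes, -0.11 for 12 cone genes, -0.10 for 14 bipolar genes, -0.10 for 24 amacrine and horizontal genes and -0.15 for 20 ganglion cell genes. Of the cone genes 0 of 12 were above 0 and of the ganglion cell genes 1 of 20, against 5060 of 12393 over all named genes. The cone arrestin gene Arr3 stood at -0.38 (SE 0.11, adjusted p = 0.25), Opn1sw, the short-wavelength opsin, at -0.20 (SE 0.11, adjusted p = 0.93), and Nefm, a neurofilament of ganglion cell axons, at -0.38 (SE 0.10, adjusted p = 0.11). Prph2, a structural protein of photoreceptor discs, stood at -0.40 (SE 0.14, adjusted p = 0.41). Members of 1 list share arrays and pools, so the shared sign is a description with no test. The median half-width of the 95% interval over all probe sets, before adjustment, was 0.23, so smaller differences could mostly not be told from 0. A call needed more: the smallest difference among named genes called higher was 0.41.

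Tissues next to the retina contributed few calls. Over all named genes 0.718% were called higher, so 0 calls in a short list lie near that share. Of 20 pigment epithelium and melanosome genes 1 rose, Gpnmb, and Rpe65 and Rgr of the visual cycle stood at -0.39 and -0.37. Of 17 lens genes 0 were called (median 0.08, with Mip at 0.24). Extraocular muscle genes had 0 of 19 called (median 0.03, with Ckm at -0.05), and corneal and conjunctival genes had 0 of 13 (median 0.02). The 3' minus 5' signal of the actin control, a measure of RNA integrity, was 0.46, 0.65 and 0.70 with INS37217, against 0.70, 0.65 and 0.60 with saline, and these ranges overlap.

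No difference was called for the receptor that INS37217 targets. P2ry2 stood at -0.06 (SE 0.10, adjusted p = 0.99), and of 19 nucleotide receptors and ectonucleotidases 0 were called. That is near the share of 0.718% called higher over all named genes. P2ry6, a receptor for uridine diphosphate, stood at 0.38 (adjusted p = 0.26), and Ada, which breaks down adenosine, at 0.43 (adjusted p = 0.073), both with the groups apart. Of 26 water, chloride and fluid transport genes 1 rose, Car9, a membrane carbonic anhydrase induced by hypoxia, by 0.66 (SE 0.13, adjusted p = 0.0095, and 0.39 without the block). Aqp1 stood at 0.14 and Aqp4 at -0.15. Cell cycle genes had 0 of 38 called (median 0.03, with Cdk1 at 0.33), and immediate early genes 0 of 29 (median 0.01). Both counts are also near that share of 0.718%. Of 16 complement genes 1 rose, the receptor C3ar1, by 0.97, of 40 chemokine, cytokine and adhesion genes 1 rose, Ccl6, and of 36 stress and cell death genes 1 rose, Gpx3, a secreted glutathione peroxidase, by 0.60.

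**Figure D3:**
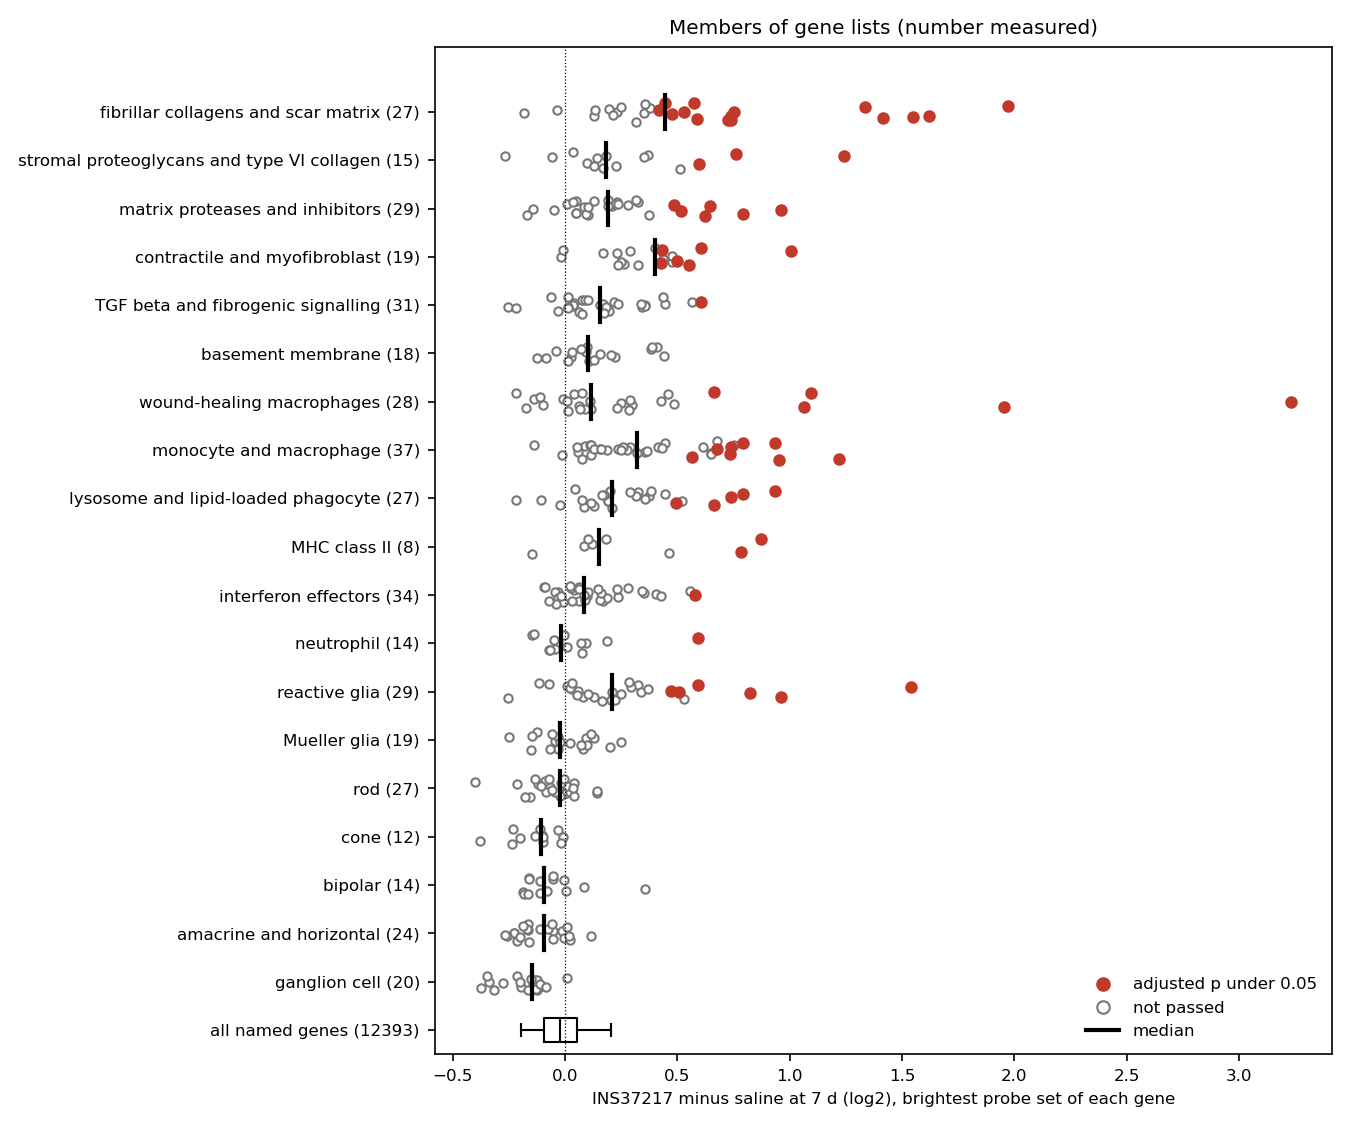
Each point is the log2 difference between INS37217 and saline at 7 d (x axis) of 1 gene by its brightest probe set, by gene list (y axis, with the number of genes measured), filled where the adjusted p was under 0.05, with the list median as a bar. The box for all named genes spans the quartiles and its whiskers the 5th and 95th percentiles. The scar matrix and contractile medians lie at 0.44 and 0.40, while the neuron lists lie at or below 0 with no filled point.

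Of the 106 named genes 36 belong to none of the gene lists. The largest differences among them were those of Lyz1, described above, of Srgn (1.00), a proteoglycan of leukocyte granules, and of Ecm1 (0.99), a secreted matrix protein. Serpinf1, which encodes pigment epithelium-derived factor, an inhibitor of vessel growth, rose by 0.80 (SE 0.10, adjusted p = 5.4e-05) on 1 of its 2 probe sets. Gja1, the gap junction protein connexin 43, rose on 3 of its 6 probe sets, by 0.61 to 0.76. Dab2, an endocytic adaptor, rose by 0.80 on 1 of its 3 probe sets, with the lowest at 0.16. Fstl1, a secreted glycoprotein, rose by 0.75 on 1 of its 2 probe sets, with the other at 0.52. Cdkn2b, an inhibitor of cyclin-dependent kinases, rose by 0.57. Without the block the adjusted p was 1 for the 3 Gja1 probe sets, Dab2 and Fstl1 and 0.06 for Cdkn2b. Axl, a receptor used in the clearance of dying cells, rose by 0.53 on 1 of its 2 probe sets, with the other at -0.10. Itgb1, an integrin chain that binds fibronectin and collagen, rose by 0.60 on 1 of its 6 probe sets. The 1 lower probe set belongs to Upk3b, a uroplakin of urothelial membranes, which read 6.50, 5.61 and 5.59 with INS37217, against 6.82, 6.24 and 6.23 with saline. It fell by 0.53 (SE 0.12, adjusted p = 0.048), its ranges overlap, and it passed in 1 of 6 single omissions. Just inside the threshold lay Anxa1 (adjusted p = 0.044) and Fbln1 (adjusted p = 0.044), and just outside it Gusb (0.54, adjusted p = 0.054), a lysosomal glucuronidase, and Cxcr4 (0.42, adjusted p = 0.06), a chemokine receptor.

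Whether the effect of INS37217 at 7 d differed from that at 24 h was tested as a difference of the 2 effects, which share no arrays. It differed for 62 of 22626 probe sets (0.274%), 40 with a larger and 22 with a smaller effect at 7 d. Without the block the count was 9 (7 larger and 2 smaller), and with 1 array left out it was 27 to 68 (27 without INS37217 replicate 2, 33 without INS37217 replicate 3, 33 without saline replicate 1 and 28 without saline replicate 3). Among the 144 probe sets higher at 7 d, 33 had a larger effect at 7 d and 1 a smaller effect. The 33 hold 28 named genes, led by collagens and other matrix genes. Col1a1 averaged 4.57 with INS37217 and 4.56 with saline at 2 h, 4.80 with INS37217 and 4.90 with saline at 24 h, and 7.04 with INS37217 and 4.79 with saline at 7 d. The means lie within 0.11 of each other at 2 h and 24 h, and the effect at 7 d exceeded that at 24 h by 2.36 (SE 0.16, adjusted p = 4.5e-08). For Postn the effect was 1.33 at 7 d and -0.15 at 24 h, and for Tagln 1.01 and -0.31, and neither gene passed at 24 h.

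Arg1 also had a positive difference at 24 h that did not pass. It averaged 4.10 with INS37217 and 4.08 with saline at 2 h, 6.66 with INS37217 and 5.53 with saline at 24 h, and 7.54 with INS37217 and 4.31 with saline at 7 d. The effect at 24 h was 1.13 (adjusted p = 0.084), and the effect at 7 d was larger by 2.10 (adjusted p = 0.03). Serpina3n averaged 11.09 with INS37217 and 10.78 with saline at 24 h, and 10.52 with INS37217 and 8.98 with saline at 7 d. Its effect at 7 d exceeded that at 24 h by 1.23 (adjusted p = 0.00031).

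Other genes were already higher with INS37217 at 24 h. Of the 144 probe sets 32 were also called higher at 24 h, which is 22.2% of the calls at 7 d and 23% of the 139 calls at 24 h (0.614% of probe sets). They hold 21 named genes, among them Chil1 (1.17 at 24 h and 0.82 at 7 d), B2m (1.07 and 0.63), Srgn (1.15 and 1.00), Tgfbi (1.05 and 1.39) and Lyz2 (0.64 and 1.22), for none of which the 2 effects differed by the test. Lcn2 had an effect of 1.30 at 24 h and 0.59 at 7 d, smaller at 7 d by 0.70 (adjusted p = 0.047). Interferon effectors had 1 of 34 genes called at 7 d, Ifitm3 (0.58), an antiviral membrane protein, with a list median of 0.61 at 24 h and 0.09 at 7 d. Ifit1, an antiviral RNA-binding protein, stood at 0.35 (adjusted p = 0.67) at 7 d and had risen by 1.19 at 24 h. The neutrophil gene S100a9 had an effect of 1.62 at 24 h and 0.19 at 7 d, a difference of -1.43 (adjusted p = 0.047).

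**Figure D4:**
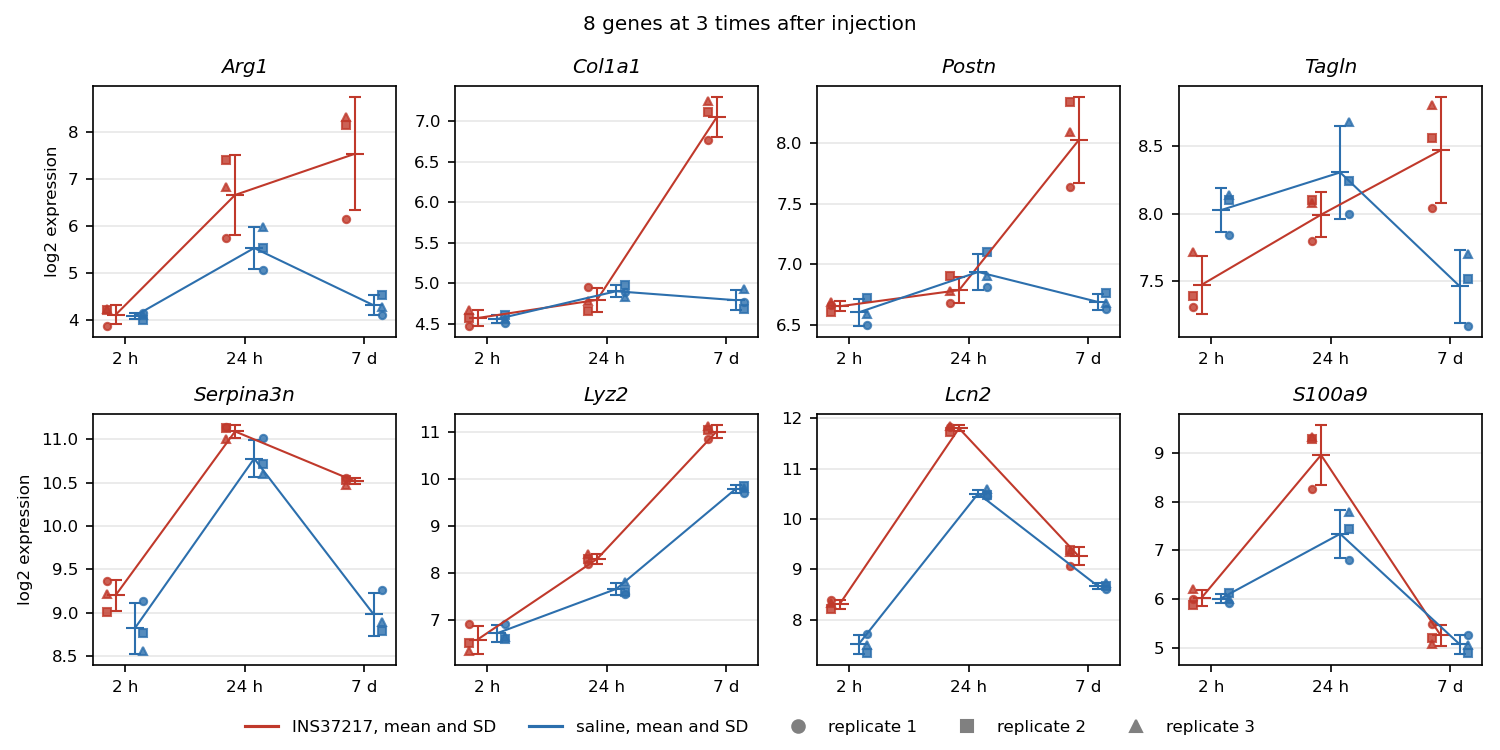
Log2 expression (y axis) of 8 genes is drawn at 2 h, 24 h and 7 d (x axis), INS37217 in red to the left of saline in blue, with points for arrays, horizontal ticks for means and bars for the SD of 3 arrays. Col1a1, Postn and Tagln are higher with INS37217 at 7 d but not at 24 h, whereas Lcn2 and S100a9 have their widest gap at 24 h.

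Against 2 h the effect differed for 189 probe sets (0.835%), or for 20 without the block, and 68 of the 144 had a larger effect at 7 d than at 2 h. At 2 h, 7 of the 144 had been called lower with INS37217 and 4 higher. Acta2 had an effect of -0.48 at 2 h and 0.61 at 7 d, Tagln of -0.55 and 1.01, Ccn2 of -0.84 and 0.75, and Gpnmb of -0.58 and 0.66, and these 4 genes passed as lower at 2 h and higher at 7 d. Pf4 also passed both ways, at -0.54 and 1.06, as did the brightest probe set of Gja1, at -0.37 and 0.61.

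**Figure D5:**
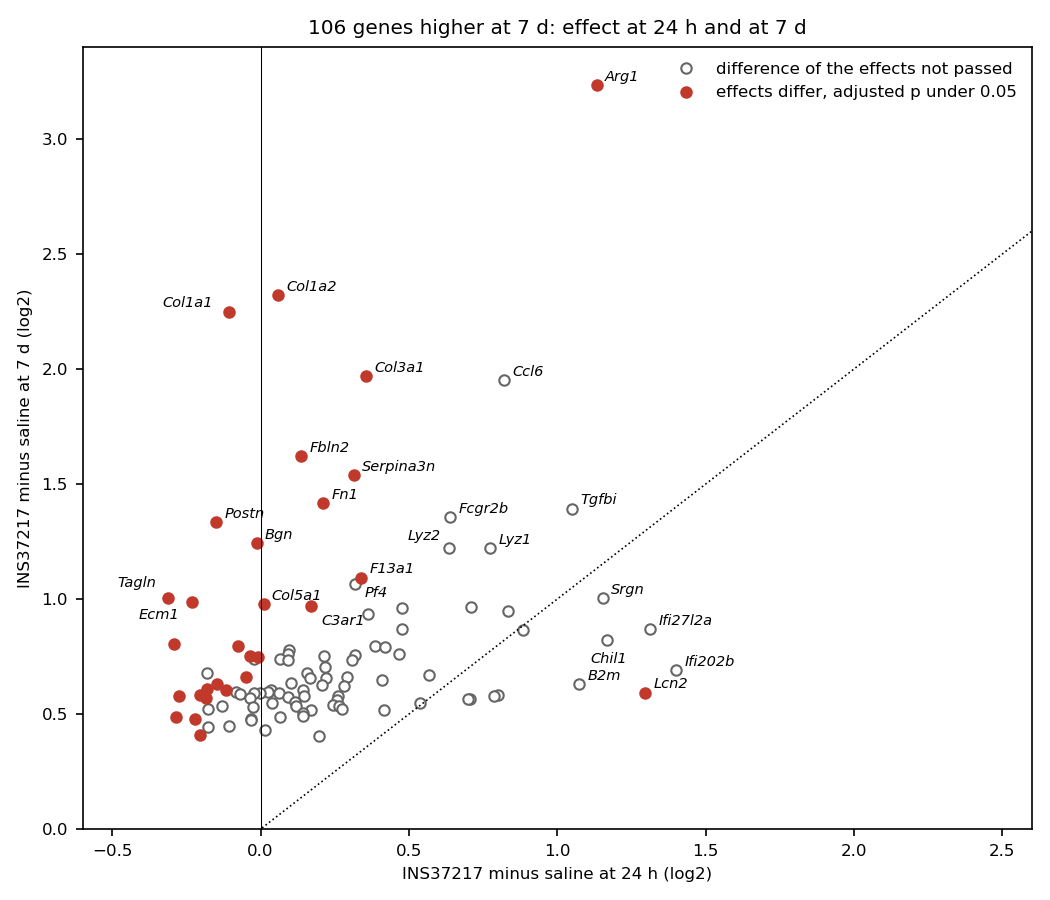
For each of the 106 named genes higher at 7 d, the log2 effect of INS37217 at 7 d (y axis) is plotted against that at 24 h (x axis), filled where the 2 effects differ with an adjusted p under 0.05, and the dotted line marks equal effects. Col1a1, Col1a2, Col3a1, Fbln2, Fn1 and Postn lie at 1.33 or more on the y axis with effects of -0.15 to 0.36 at 24 h, and Lcn2 is the filled point below the line.

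Promoter letters were counted as a description, in the 250 bases before the start of 86 of the genes that rose and of 9887 genes on the array with a RefSeq promoter (GRCm38.p6), on both strands. The PU.1 letters GAGGAAG were in 22.1% of the genes that rose and in 10.7% of all genes, and the TATA box letters TATAAA in 16.3% and 9.14%. The AP-1 letters TGANTCA were in 9.3% and 5.51%, and the CCAAT box letters CCAAT in 30.2% and 35.8%. The NF-kB consensus was in 1 of the 86 (1.16%) and in 0.172% of all genes, and the CArG box of serum response factor was in 1.16% and 1.38%. A match is not a bound site, and no test was made of these shares.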

How the data were processed

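RNA of pooled mouse retinas was measured on Affymetrix arrays. The authors deposited log2 values computed by RMA, per the submitters' processing notes, in 1 table of 22690 probe sets and 18 arrays. The values run from 2.83 to 14.15. Which version of RMA was run, and how it was set, is not stated in those notes. After 64 control probe sets were left out, 22626 entered a limma 3.58.1 fit (R 4.3.3) of all 18 arrays, with 6 group means and the replicate number as an additive block (10 residual and 10.5 prior degrees of freedom). Tests were two-sided, with the Benjamini-Hochberg adjustment. Groups come from the sample titles.

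The replicate numbers were taken to pair the arrays, since deviations from the group means correlated at 0.426 to 0.921 in all 45 same-numbered pairs of different groups. Replicates 2 and 3 of different groups correlated at 0.363 to 0.725, and replicate 1 with either at -0.847 to -0.501. Deviations from a mean of 3 arrays cancel within a group, so a shift of replicate 1 alone would make replicates 2 and 3 correlate. These correlations therefore do not show that replicates 2 and 3 are paired by number. The labels do not say what the numbers stand for. The GEO platform table gave 20380 probe sets 1 gene, 691 several and 1555 none. Those with several or none stayed in the fit but are not named: of the 144 higher ones, 9 had several and 5 none. A gene in a list is represented by its probe set of highest mean. Sums of a list are log2 of the summed linear values.

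Named are up to 40 genes per direction of largest difference among the calls, up to 6 members per list and all that passed, 10 probe sets on each side of the threshold, genes whose effect differed between times, and some marker genes fixed by name. In addition, 9 genes outside this rule are given. The comparison, the lists and the rule were chosen with earlier results of these data known. Only the limma fit was tried on simulated data. Those data held additive replicate shifts and normal noise, so the block model was true there by construction. Alternatives were no block, a random block, only the 6 arrays at 7 d, only replicates 2 and 3, each array left out, 2 other scalings, a level filter, another variance prior and gene means. Promoter sequences are RefSeq's (GRCm38.p6). The number of arrays limits the precision, and raw image files were not used here.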

Additional observations from a re-analysis of the deposited data

Results flagged for a closer look

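The effect of INS37217 at 7 d differed from its effect at 24 h by limma's test of the difference for 62 probe sets, and from its effect at 2 h for 189. Without the replicate block these counts were 9 and 20, and with 1 array left out 27 to 68 and 124 to 240. Values below are the effect at 7 d minus the effect at 24 h, in log2.

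Among the named genes Col1a1 (2.36) and Col1a2 (2.26) had the widest gaps. Other matrix and contractile genes with wide gaps were Col3a1 (1.61), Fbln2 (1.48), Postn (1.48), Tagln (1.32), Bgn (1.26), Ecm1 (1.22), Fn1 (1.21) and Col5a1 (0.97). Smaller gaps were found for Mfap4 (0.85), an elastic fibre protein, Tpm2 (0.79), a tropomyosin, Fstl1 (0.79), Thbs1 (0.78), Ccn2 (0.76), Ltbp3 (0.70) and Lpp (0.61), a focal adhesion protein. Among macrophage and complement genes the gap was 2.10 for Arg1, 1.10 for Cd36, 0.80 for the complement receptor C3ar1, 0.77 for the lysosomal lipase Lipa, 0.75 for F13a1 and 0.71 for Gpnmb. It was 1.23 for Serpina3n, 0.87 for Serpinf1, 0.79 for the selenium carrier Selenop, 0.75 for Cdkn2b and 0.72 for the plasma glutathione peroxidase Gpx3. Each of these genes was higher at 7 d.

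The gap was below 0 for S100a9 (-1.43), for the complement factor Cfb (-1.02) and for Lcn2 (-0.70). Alas2, an enzyme of haem synthesis in erythroid cells, had a gap of 0.87, with an effect of -0.81 at 24 h and 0.05 at 7 d, and it was not called at 7 d.

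Single genes were not tested for an outlying array, since each group holds 3.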

How the results depend on the processing

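Of 280 named genes 0 had a call reversed under the alternatives tried. Called genes kept their sign, and no uncalled gene passed with the opposite sign. Uncalled genes near 0 could change sign, as Alas2 did (0.05, and -0.05 to 0.13 with 1 array left out). Without the replicate block (no replicate block) limma gave 34 calls at 7 d against 145 with it. On the called probe set of largest difference, 83 of 107 called genes lost their call. Bgn is among the 83 and kept a call on another probe set. With only the 6 arrays at 7 d, 229 passed with the block and 0 without it (limma, 262 at an unadjusted p under 0.05), and 85 passed among the 11312 probe sets of above-median level. The random block (125), quantile normalization (158), equal medians (148), replicates 2 and 3 (151), the other variance prior (163) and gene means (105) stayed within 1.5 times. Leaving out 1 array gave 73 to 166 (73 without INS37217 replicate 2, 94 without saline replicate 1, 87 without saline replicate 3). The effects at 7 d and 24 h differed for 62 probe sets, for 9 without the block, 31 above the median level, 35 by gene means, and 27 to 68 with 1 array left out. For 7 d and 2 h the counts were 189, 20 without the block, 310 with replicates 2 and 3, 91 by gene means and 124 to 240. Single omissions that moved the first by over 1.5 times were INS37217 replicates 2 (27) and 3 (33) and saline replicates 1 (33) and 3 (28), and the second saline replicate 3 (124). Of the list genes 60 were higher, 16 without the block, 0 with only the 6 arrays and no block, and 32 to 69 with 1 array left out (32 without INS37217 replicate 2, 39 without INS37217 replicate 3, 36 without saline replicate 1). Probe sets with groups apart numbered 890, 450 above the median level and 504 by gene means. The cause of these moves was not tested, other than that a level filter or gene means leave fewer features and single omissions fewer arrays. With only the 6 arrays at 7 d the effects at 2 h and 24 h could not be fitted. Signal over background is not known for these values.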
